A study of Homo sapiens with 3 samples.

Results

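Read-through transcription joins 2 neighbouring genes on the same strand in 1 RNA, and reference annotations give the joined product a gene entry of its own with both symbols in its name. In the gene tables of 3 libraries labelled as the liver cancer cell line HepG2, 143 of 39320 gene rows on assembled chromosomes and mitochondrial DNA carried such a name, A-B, where A and B were also rows on the same chromosome and strand. A is the upstream and B the downstream parent in the name, and the 3 rows together are called a trio here. The rule for members used name and position alone, but it was set with earlier results of these data known. RNA was measured by sequencing polyA RNA in these libraries, labelled as replicates 1 to 3 of wild-type cells of this established human line, with no transgene, treatment or second condition, so every comparison is made within a library. The labels do not say whether the 3 libraries came from separate cultures, and the spread given here may be technical. Values are TPM, a transcript abundance that is scaled for gene length and sums to a fixed total per library, so TPM carries no read depth. Depth differed little, since coverage per unit of FPKM reached 13.3, 12.8 and 11.5 in replicates 1, 2 and 3. The markers went against the label. HepG2 cells are known to make secreted liver proteins such as albumin, but all 9 genes of a list of such proteins stayed below 1 TPM in each library and 6 of them, with ALB and APOA1, were listed at 0 throughout. Among epithelial markers, the keratin gene KRT8 had 2609.6 ± 28.6 TPM, CDH1 had 1.02 ± 0.0382 TPM and EPCAM had at most 0.0901 TPM, while the mesenchymal marker VIM had 694 ± 48.1 TPM (SD, n = 3). The libraries may therefore not be the line that their label names, and no value below is given as one of HepG2.

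A read-through RNA begins at the promoter of the upstream gene. The polyadenylation signal at the end of that gene is passed over, the polymerase goes on into the next gene, and splicing then removes the last part of the upstream gene, the space between the genes and the start of the downstream gene. Some of these RNAs have an open reading frame that runs from one gene into the other and encodes a fused protein. In others the frame ends early, and the RNA is a candidate for nonsense-mediated decay. Most exons of a read-through RNA are also exons of a parent, so a short read inside such an exon belongs equally well to either row. Reads over the joining junction, or in exons and junctions that the rows do not share, set them apart.

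The junctions were taken from the canonical transcripts of GENCODE v44 on GRCh38, the build to which the reads were mapped. A gene of the same name was found there for 110 of the 143 members, and in 91 of these the transcript left A and went straight into B. The intron removed began with GT and ended with AG in 89 of the 91. The donor was the end of the last but one exon of A in 48, and the acceptor was the start of exon 2 of B in 65. Both held in 35. The junction lay inside the annotated coding region in 74. In 40 of those the reading frame also ended at the stop codon of the canonical B transcript. Of the 91 transcripts, 24 are annotated as targets of nonsense-mediated decay, among them those of HNRNPUL2-BSCL2, BLOC1S5-TXNDC5 and SENP3-EIF4A1. For PALM2-AKAP2, PRH1-PRR4, PARGP1-AGAP4, TMX2-CTNND1 and TMEM189-UBE2V1, which are described below, no junction out of A was found under that name in GENCODE v44. The following junctions are shown because the results turn on their members. Each has 15 bases of the upstream exon in lower case and 15 bases of the downstream exon in capitals, read 5′ to 3′ on the transcribed strand.
COMMD3-BMI1: atggaacaattacagGATTTTTTATCAAGC
RPS10-NUDT3: accgaattccagtttGTGCTACTCGTGAGC
HSPE1-MOB4: ggttctaaaggaaagGATTTCTATAATTGG
NME1-NME2: catacaagttggcagGACCATGGCCAACCT
HNRNPUL2-BSCL2: caatacaatcgggatGGACCCTCCATTTTC
ISY1-RAB43: cagaaggctcctgggCTGCAGATCTGGGAC
NDUFC2-KCTD14: attttcctgaagaagGGGGTGACATTGGCC
ATP5MF-PTCD1: gagcgtttcaaagagGCCCTGGAGGGACAG

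In GRCh38, the last upstream and first downstream base of these junctions are 22319018 and 22326431 on the plus strand of chromosome 10 for COMMD3-BMI1. They are 34418369 and 34341972 on the minus strand of chromosome 6 for RPS10-NUDT3. They are 197501238 and 197523624 on the plus strand of chromosome 2 for HSPE1-MOB4. They are 51161272 and 51166827 on the plus strand of chromosome 17 for NME1-NME2. In these 4 members the acceptor was the start of exon 2 of B and the frame ended at the stop codon of B. On the minus strand of chromosome 11, HNRNPUL2-BSCL2 joins 62715500 to 62707324, and NDUFC2-KCTD14 joins 78072998 to 78038758. The acceptor in each of these pairs was no exon start of the canonical B transcript. On the minus strand, ISY1-RAB43 joins 129130088 to 129095169 on chromosome 3 and ATP5MF-PTCD1 joins 99460086 to 99435268 on chromosome 7. The frame ended at the stop codon of B in ATP5MF-PTCD1 and not in ISY1-RAB43. The tables hold 1 value per row and no reads over single junctions, so none of these junctions was counted.

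The 143 members lay on 23 chromosomes, 80 on the plus and 63 on the minus strand, and the median span of a read-through row was 47764 bp. Every one of the 143 overlapped both of its parent rows. The read-through row began at the same base as A in 73 and within 100 bp of it in 104, and it ended at the same base as B in 107. The distance from the end of A to the start of B had a median of 6767 bp, it was below 10 kb in 89, and the A and B rows themselves overlapped in 8. RefSeq promoter windows on GRCh38.p14, which run from 250 bases before to 50 after a gene's start, were given for both A-B and A in 102 members. They were the same sequence in 51, and their positions were at most 100 bp apart in 79.

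Many read-through rows had signal, mostly at low levels. At least 1 TPM in all 3 libraries was reached by 65 of the 143 read-through rows, or 45.5%, against 33.8% of all 39320 rows. Of the parents, 112 of 142 A rows and 79 of 143 B rows reached it. A further 24 read-through rows, or 16.8%, were listed at 0 in all 3 libraries, against 40.7% of all rows. At least 10 TPM in all 3 libraries was reached by 14 read-through rows and at least 30 TPM by 4. By mean, 15 of the 143 read-through rows reached 10 TPM, against 8419 of all 39320 rows. The share of read-through rows was thus above that of all rows at 1 TPM and below it at 10 TPM. The summed TPM of the 143 rows was 597, 627 and 636 in replicates 1, 2 and 3, and the 10 highest rows held 47.4%, 46.9% and 45.3% of it. These are values of bulk RNA, in which fewer cells with a transcript and less of it per cell cannot be told apart.

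RPS10-NUDT3, which joins a protein of the small ribosomal subunit to a phosphatase of inositol pyrophosphates, was the highest read-through row. It had 58.1, 62.7 and 67.6 TPM in replicates 1, 2 and 3, a mean of 62.8 ± 4.70 TPM (SD, n = 3). RPS10 itself had 1431, 1520.3 and 1520.0 TPM, and NUDT3 had 6.23, 5.49 and 5.29 TPM. The 3 rows did not overlap in any library, and the read-through row lay between its parents, with a log2 ratio of -4.55 ± 0.07 to RPS10 and 3.26 ± 0.21 to NUDT3 (SD, n = 3). Every log2 ratio of a read-through row to a parent is on the log2(TPM + 1) scale.

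HSPE1-MOB4, at 25.3, 28.4 and 28.0 TPM, had the same order. HSPE1, the mitochondrial co-chaperonin, had 371, 454 and 469 TPM, and MOB4, a component of striatin kinase and phosphatase complexes, had 8.31, 6.14 and 6.15 TPM. The read-through row was above MOB4 in every library by a log2 ratio of 1.85 ± 0.31 (SD, n = 3). HNRNPUL2-BSCL2 had 35.6, 38.0 and 33.8 TPM. HNRNPUL2, a nuclear RNA-binding protein, had 38.6, 40.7 and 39.8 TPM, and BSCL2, which encodes the lipid droplet protein seipin, had 12.1, 8.53 and 9.30 TPM. The read-through row was close to HNRNPUL2, with a log2 ratio of -0.15 ± 0.07, and above BSCL2, with one of 1.76 ± 0.28 (SD, n = 3).

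In 4 others of the 10 highest, the downstream parent was the highest row. P2RX5-TAX1BP3 had 21.4, 19.9 and 20.8 TPM beside 22.6 ± 0.0580 TPM for P2RX5, an ATP-gated channel, and 136 ± 2.90 TPM for TAX1BP3, a PDZ domain protein (SD, n = 3). BCL2L2-PABPN1 had 19.9, 18.8 and 20.5 TPM, above the 11.8 ± 0.382 TPM of BCL2L2, an inhibitor of apoptosis, and below the 140 ± 2.92 TPM of PABPN1, a nuclear poly(A)-binding protein (SD, n = 3). BLOC1S5-TXNDC5 had 18.3, 11.7 and 13.5 TPM, between BLOC1S5, which acts in the making of lysosome-related organelles, at 3.09 ± 0.325 TPM and TXNDC5, a disulfide isomerase of the endoplasmic reticulum, at 107 ± 6.91 TPM (SD, n = 3).

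NME1-NME2, the last of these 4, had 16.7, 20.3 and 13.9 TPM and was the lowest of its trio. NME1 and NME2, paralogs that encode nucleoside diphosphate kinases, had 796 ± 35.4 and 1822 ± 86.9 TPM (SD, n = 3). The read-through row thus held 0.644% ± 0.125 of the summed TPM of its trio (SD, n = 3), although it ranked 8th of the 143 by level.

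**Figure D1:**
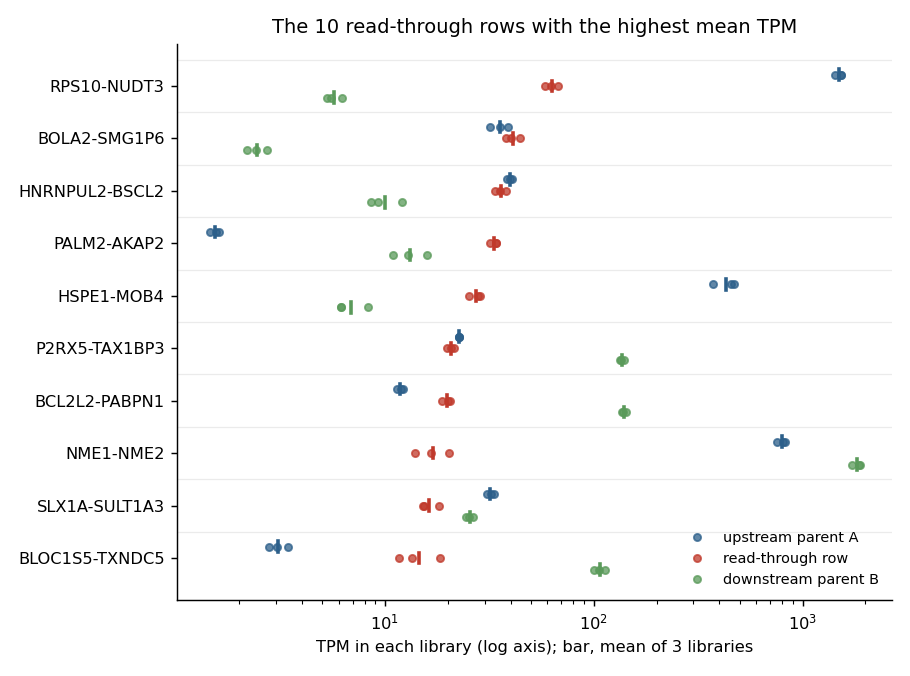
TPM on a log axis for the 10 read-through rows with the highest mean (red) and for their upstream (blue) and downstream (green) parents, with 1 point per library and a bar at the mean of 3 libraries. RPS10-NUDT3 and HSPE1-MOB4 sit between a high upstream and a low downstream parent, while PALM2-AKAP2 sits above both of its parents.

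The order of each trio was compared within each library. At least 1 row had a mean of at least 1 TPM in 127 trios. The read-through row itself had such a mean in 83. The other trios entered through a parent, so the read-through row could not be the highest by mean there. This lowers the counts, medians and shares below in advance, and a tie at 0 counted as not above. Of the 127, the read-through row was above A in all 3 libraries in 16, or 12.6%. It was above B in all 3 libraries in 39, or 30.7%. Pairs of neighbouring rows on a strand with a mean of at least 1 TPM in either row numbered 20663. Of these, 48.7% were above their upstream neighbour and 49.7% above their downstream neighbour in all 3 libraries. The limits are unlike, since these pairs had to meet the limit themselves. In a trio the third row could meet it while the read-through row and the parent compared were both at 0, as in IQCJ-SCHIP1. The read-through row was the lowest of its trio in all 3 libraries in 51 trios. It lay between a higher A and a lower B in 32, and between a higher B and a lower A in 10. The median log2 ratio over the 127 trios was -2.07 ± 0.09 to A and -1.23 ± 0.24 to B (SD, n = 3). The read-through row held a median of 4.43%, 4.56% and 4.83% of the summed TPM of its trio in replicates 1, 2 and 3.

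The level of the read-through row went modestly with that of the upstream parent and only weakly with that of the downstream parent. Where both parents had at least 1 TPM in all 3 libraries, 37 of 66 read-through rows did too, or 56.1%. Where A alone did, 24 of 47 did, or 51.1%, and where B alone did, 3 of 13 did, or 23.1%. Where neither parent did, 1 of 17 did. Across the 127 trios, Spearman's rho of the mean read-through level was 0.357 with A and 0.170 with B. These are descriptions across rows that share libraries and, in part, the same reads. The distance between the parents did not order the trios, since Spearman's rho between that distance and the read-through share was 0.0246 over the 119 trios whose parents do not overlap.

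**Figure D2:**
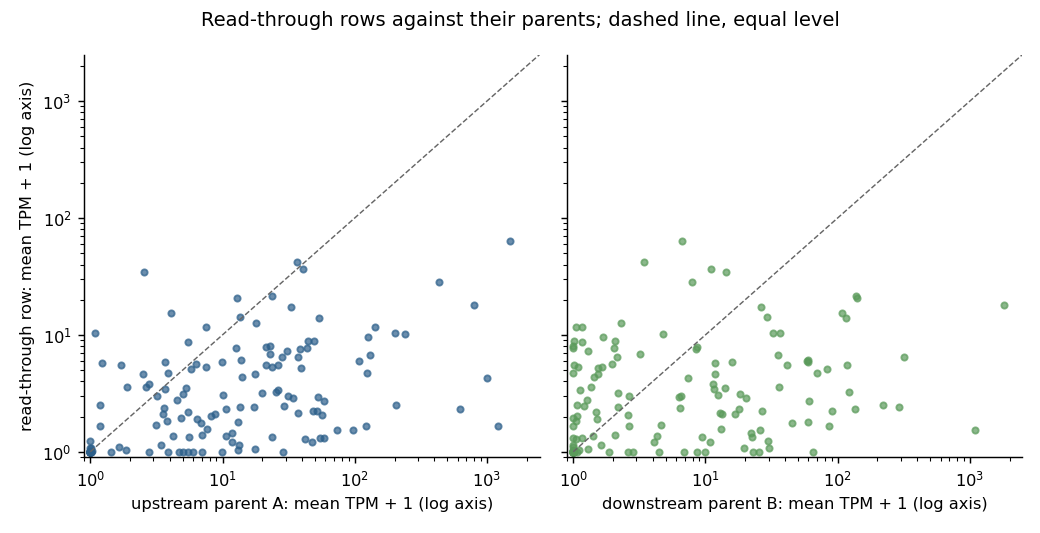
Mean TPM + 1 over 3 libraries of the 143 read-through rows against the upstream parent (left) and the downstream parent (right), both axes on a log scale, with a dashed line at equal levels. Most points lie below the line on the left, and a column of points at the left edge of the right panel marks downstream parents near 0.

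In 6 of the 127 trios the read-through row was the highest in all 3 libraries, and by coverage in 11. The order within a trio thus depended on the measure, and the reason was not tested. Of the 74 trios whose parents both had a mean of at least 1 TPM, the read-through row was the highest in 2, above A in 6 and above B in 12. PALM2-AKAP2, named after a paralemmin and an anchor protein of protein kinase A, had 34.2, 34.2 and 31.8 TPM. No junction out of its upstream parent was found for it in GENCODE v44. PALM2 had 1.60, 1.55 and 1.45 TPM and AKAP2 had 15.9, 10.9 and 12.9 TPM. The log2 ratio to AKAP2, the higher parent, was 1.29 ± 0.26, and the read-through row held 69.5% ± 3.62 of the trio (SD, n = 3). TVP23C-CDRT4 had 11.0, 10.1 and 10.8 TPM, against 6.97, 6.17 and 6.43 TPM for TVP23C, a membrane protein of the Golgi, and at most 0.0721 TPM for CDRT4. Its log2 ratio to TVP23C was 0.63 ± 0.04 (SD, n = 3).

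PRH1-PRR4, from a cluster of genes for salivary proline-rich proteins, had 6.62, 8.79 and 7.77 TPM, with PRH1 at 6.50, 3.42 and 3.52 TPM. The gap was narrow in replicate 1 and wide in the other libraries. PRH1 is also the upstream parent of PRH1-TAS2R14. In the 3 others, 1 parent or both are pseudogenes or members of duplicated families. BOLA2-SMG1P6 had 38.2, 44.4 and 40.2 TPM, with BOLA2, an iron-sulfur cluster protein, at 32.0, 35.7 and 39.0 TPM. BMS1P4-AGAP5 had a mean of 3.63 ± 0.516 TPM and SUGT1P4-STRA6LP-CCDC180 one of 2.59 ± 0.413 TPM (SD, n = 3). The authors' treatment of reads that match several copies is not given in the sources used here, so the rows of BOLA2-SMG1P6, BMS1P4-AGAP5, PARGP1-AGAP4, TIMM23B-AGAP6, SLX1A-SULT1A3, SLX1B-SULT1A4 and NME1-NME2 are uncertain. Without these 7, the read-through row was the highest in 4 of 120 trios, and the median share was 3.96% in place of 4.61%.

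The other rows nearest to their higher parent were HNRNPUL2-BSCL2, PARGP1-AGAP4, SYS1-DBNDD2 and JMJD7-PLA2G4B. SYS1-DBNDD2 had 11.2, 12.3 and 11.7 TPM against 18.3, 16.9 and 15.5 TPM for SYS1, a Golgi trafficking protein, and 1.28, 1.51 and 1.07 TPM for DBNDD2. By coverage the order of SYS1-DBNDD2 and SYS1 was reversed. JMJD7-PLA2G4B, which joins a hydroxylase to a phospholipase, had 3.06, 5.23 and 4.61 TPM. PLA2G4B had 1.68, 0.0974 and 0.179 TPM, highest in the library in which the read-through row was lowest.

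At the other end were read-through rows beside very abundant parents. RPL36A-HNRNPH2 had 0.565, 1.42 and 0 TPM, while RPL36A, a protein of the large ribosomal subunit, had 1214 ± 89.2 TPM (SD, n = 3). SENP3-EIF4A1 had 0.440, 0.607 and 0.524 TPM beside EIF4A1, the helicase of translation initiation, at 1103 ± 4.92 TPM (SD, n = 3), although only 736 bp separate SENP3 from EIF4A1. RPL17-C18orf32 had 4.53, 2.34 and 2.87 TPM beside RPL17 at 997 ± 61.1 TPM, and TGIF2-RAB5IF had 1.00, 1.03 and 2.21 TPM beside RAB5IF at 288 ± 18.3 TPM (SD, n = 3). In these 4 trios the mean share of the read-through row in the summed TPM was between 0.0437% and 0.480%.

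COMMD3-BMI1 spans 22316383 to 22331485 on the plus strand of chromosome 10, and 792 bp separate its parents. COMMD3 belongs to the COMMD family, whose members act in endosomal sorting, and BMI1 is a core subunit of Polycomb repressive complex 1. BMI1 is among the genes that the study names, and no other member had such a parent. The read-through row had 2.37, 1.42 and 1.84 TPM in replicates 1, 2 and 3. COMMD3 had 31.0, 34.4 and 34.6 TPM and BMI1 had 20.2, 19.0 and 18.5 TPM, so the read-through row was the lowest and COMMD3 the highest in every library, with no overlap. The log2 ratio of the read-through row was -3.59 ± 0.32 to COMMD3 and -2.83 ± 0.20 to BMI1 (SD, n = 3), and it was below both parents in 3 of 3 libraries. An exact permutation test that flips the sign of the ratio in each library, two-sided, gave p = 0.25 for each ratio, and with 3 libraries no ratio in this text can reach a smaller p. The read-through row held 3.46% ± 0.921 of the trio (SD, n = 3). Its annotated transcript has 14 exons and a coding region of 1407 nt, and its RefSeq promoter window is the same sequence as that of COMMD3.

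**Figure D3:**
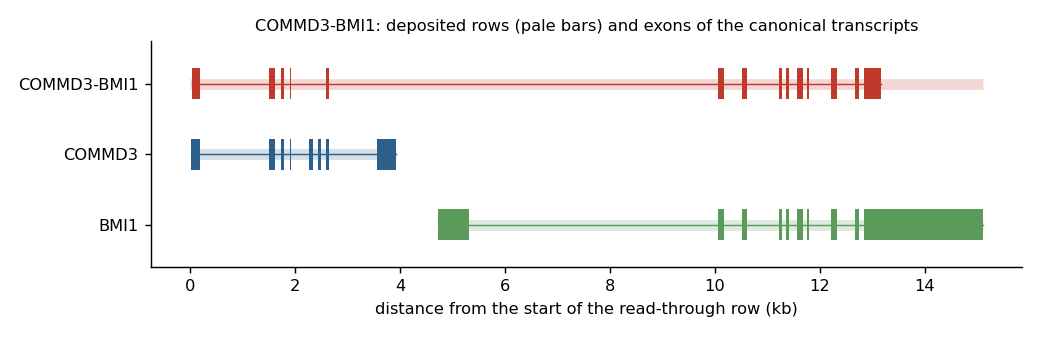
Map of COMMD3-BMI1, COMMD3 and BMI1 by distance in kb from the start of the read-through row, with the deposited rows as pale bars and the exons of the GENCODE v44 canonical transcripts as boxes. The read-through transcript leaves out the last exon of COMMD3, a pair of inner exons of COMMD3 and the first exon of BMI1, and its other exons overlap those of a parent.

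Some members were also grouped by short lists of parents picked by hand, which leave out other parents of like role, so each count holds for its list alone. Of 8 members on the list of parents in the ribosome, in RNA processing and translation and of the kinases NME1 and NME2, 5 had at least 1 TPM in all 3 libraries, with a median of 8.12 TPM, and these include RPS10-NUDT3, HNRNPUL2-BSCL2 and RBM14-RBM4. BCL2L2-PABPN1 is not on this list. Of 9 on the mitochondrial list, 5 did, with a median of 3.74 TPM, and HSPE1-MOB4 was the highest at 27.2 ± 1.70 TPM (SD, n = 3). Of 11 on the list for ubiquitin, chromatin and signalling, 4 did, with a median of 1.88 TPM. Of 10 with a zinc finger parent, 3 did, with a median of 0.744 TPM and a highest mean of 3.72 TPM. Of 8 on the list of ligand, receptor and immune parents, 0 did. The highest of the 8 was GPR75-ASB3, at 2.40, 0.976 and 2.93 TPM in replicates 1, 2 and 3. On this list 4 were listed at 0 in all 3 libraries, among them KLRC4-KLRK1, CCL15-CCL14 and INS-IGF2. That list leaves out P2RX5-TAX1BP3, described above, and TMED7-TICAM2, named after its values were seen, whose downstream parent encodes an adaptor of Toll-like receptors and which had 7.83, 6.32 and 6.24 TPM. Over all 143 members the median was 1.41 TPM, and SENP3-EIF4A1 is in 2 of these groups. At least 1 TPM in all 3 libraries was reached by 45.5% of the 143 members and by 33.8% of all rows. The shares at 0 in all 3 libraries were 16.8% and 40.7%. The lists are short and were not tested against these shares, so their counts do not set the groups apart.

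In 2 places, read-through rows formed a chain in which a row is the downstream parent of one member and the upstream parent of another. BLOC1S5 had 2.79, 3.06 and 3.43 TPM. Its read-through into TXNDC5 was above it in every library, while EEF1E1-BLOC1S5, which enters it from EEF1E1, a scaffold of the aminoacyl-tRNA synthetase complex, had 0.631, 0 and 0 TPM. RAB4B, a small GTPase of endosomes, had 5.80, 6.94 and 5.05 TPM. RAB4B-EGLN2, which runs on into a prolyl hydroxylase of the oxygen-sensing pathway, had 0.112, 0.529 and 1.64 TPM, and MIA-RAB4B was listed at 0 in all 3 libraries, as was MIA.

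Of the 24 read-through rows listed at 0 in all 3 libraries, 8 belonged to trios in which every row was at 0, among them APOC4-APOC2, a pair of apolipoprotein genes. In 14 of the 24, a parent had at least 1 TPM in all 3 libraries, and in 4 a parent had at least 10 TPM. These 4, named after their values were seen, were IQCJ-SCHIP1, EEF1AKMT4-ECE2, TRIM39-RPP21 and DNAAF4-CCPG1. RPP21, a subunit of ribonuclease P, had 59.5, 66.7 and 65.2 TPM, and EEF1AKMT4 had 23.6, 30.9 and 29.2 TPM. The tables give no counts, so the lowest level that could have been seen is unknown. Of the member names, 10 also occur on unplaced or alternate sequences, and those copies were all at 0 in mean TPM.

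Read-through rows of low level differed between these libraries more often than other rows of that level. Among the 83 with a mean of at least 1 TPM, 18, or 21.7%, had a range of log2(TPM + 1) above 1, against 1.26% of the 13753 rows at that level. The limit was on the mean over libraries, for read-through and other rows alike. A row could thus pass it through the same high value that gave its range, as NDUFC2-KCTD14 did. All 18 had a mean below 10 TPM. Among rows of 1 to 10 TPM, they were 18 of 68, or 26.5%, against 2.81% of all 5334 rows, and 3 of the 74 parent rows in that band. The median coefficient of variation there was 23.1% for read-through rows, 11.1% for parent rows and 9.16% for all rows. At 10 TPM or more, 0 of 15 read-through rows had such a range, against 0.273% of all rows, and the median coefficient of variation was 7.49% for read-through rows and 4.88% for all rows. No group or condition was compared here, so these shares carry no test. With 1 library left out, the count was 12 without replicate 1, 11 without replicate 2 and 10 without replicate 3. Fewer libraries cannot raise the range of a given row. The limit on the mean was applied again to the libraries kept, so the rows counted could also change.

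**Figure D4:**
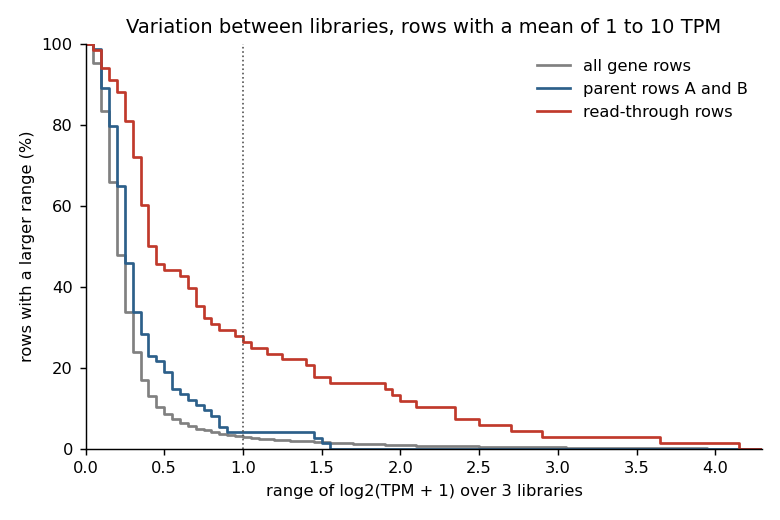
Share of rows, in percent, whose range of log2(TPM + 1) over 3 libraries exceeds the value on the x axis, for rows with a mean of 1 to 10 TPM. The dotted line marks a range of 1, which 26.5% of read-through rows exceed and 2.81% of all gene rows.

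ISY1-RAB43 had the largest range, 4.14. It had 0, 2.87 and 16.7 TPM in replicates 1, 2 and 3. ISY1, a protein of the spliceosome, had 44.3, 39.0 and 30.2 TPM, and RAB43, a small GTPase, had 10.8, 8.36 and 3.05 TPM. Both parents were thus lowest in replicate 3, where the read-through row was highest, and the sum of the 3 rows was 55.1, 50.3 and 49.9 TPM. NDUFC2-KCTD14 had 0, 0.0394 and 11.2 TPM. Its upstream parent NDUFC2, a subunit of respiratory complex I, had 114, 130 and 121 TPM, and KCTD14 was listed at 0 in all 3 libraries. Replicate 3 alone held nearly all of the NDUFC2-KCTD14 signal.

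TMEM189-UBE2V1, which joins a desaturase of ether lipids to a ubiquitin-conjugating enzyme variant, had 0, 6.39 and 0.264 TPM. Its upstream parent TMEM189 had 35.3, 19.7 and 18.4 TPM, and UBE2V1 had 125, 114 and 125 TPM, lowest in replicate 2, where the read-through row was highest. TPTEP2-CSNK1E had 0.424, 6.25 and 7.97 TPM, while CSNK1E, casein kinase 1 epsilon, had 64.9, 58.6 and 53.7 TPM in the reverse order. The pseudogene TPTEP2 had 3.64, 1.91 and 2.46 TPM, highest where the read-through row was lowest. TMX2-CTNND1 had 11.0, 1.14 and 2.65 TPM and, unlike the others of this group, was highest in replicate 1. CTNND1, which encodes p120 catenin, had 54.8, 59.4 and 58.6 TPM, lowest in replicate 1. Its upstream parent TMX2, a thioredoxin-related membrane protein, had 111, 106 and 105 TPM and was highest in replicate 1, as the read-through row was. ATP5MF-PTCD1 had 3.94 TPM in replicate 2 and was listed at 0 in the others. PTCD1, a mitochondrial RNA-binding protein, had 17.6, 14.9 and 18.1 TPM and was lowest in replicate 2. ATP5MF, a subunit of the ATP synthase, had 536, 650 and 680 TPM, lowest in replicate 1.

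**Figure D5:**
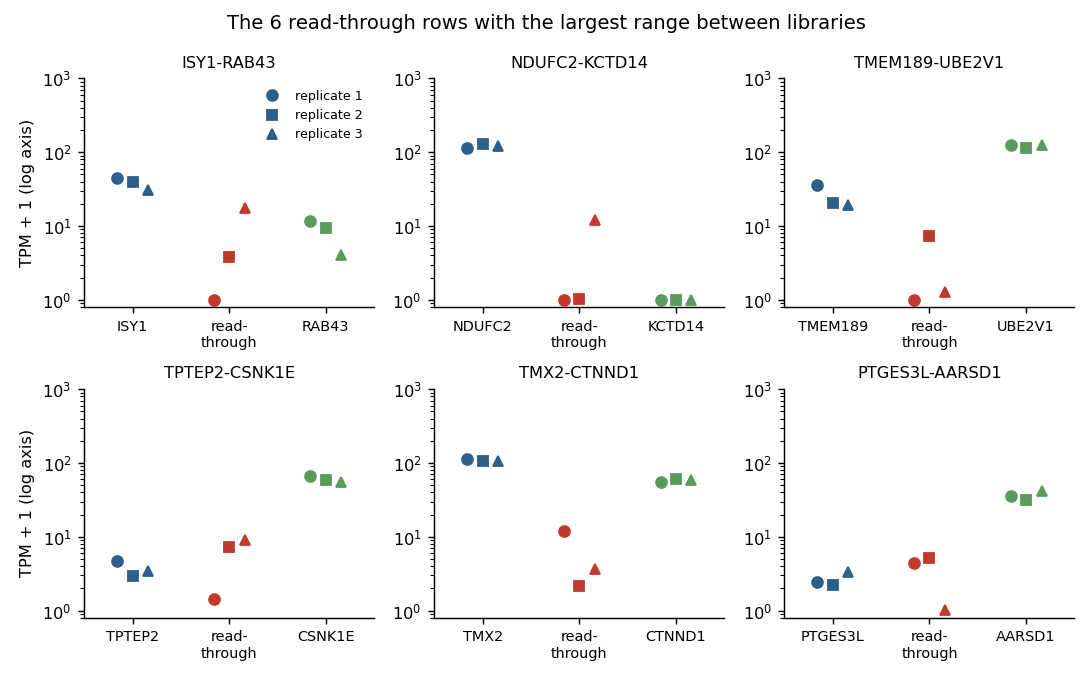
TPM + 1 on a log axis in each library (circle, square and triangle for replicates 1, 2 and 3) for the 6 read-through rows with the largest range and their parents. In ISY1-RAB43 the triangles are highest for the read-through row and lowest for both parents, and the parents vary less than the read-through row in every panel.

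Across the 18, the reverse order was more frequent for B than for A. In the 17 trios whose B had a mean of at least 1 TPM, B was lowest in the library where the read-through row was highest in 14 and highest there in 2. For A the counts were 7 lowest and 2 highest of 17. Among the read-through rows with a smaller range, B was lowest there in 23 of 43 and A in 26 of 61. The highest value of the 18 fell in replicate 1 in 2, in replicate 2 in 8 and in replicate 3 in 8. The summed TPM of each of the 18 trios had a range of log2(TPM + 1) between 0.05 and 0.33. An abundant parent holds a sum steady whatever its read-through row does, so this last range says little where the read-through share is small. How reads in shared exons were divided among the 3 rows is not given in the sources used here, and its part in the result was not tested.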

How the data were processed

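PolyA RNA was sequenced in 3 libraries labelled as wild-type HepG2 with 150 bp paired-end reads. Per the labels, reads were filtered with FastQC 0.11.8 and Trim Galore 0.6.2 and mapped to GRCh38 with STAR 2.6.1a, and StringTie is named among the tools. The annotation and the treatment of multiply mapped reads are not given in the sources used here. The authors deposited coverage (a signal that is not scaled for depth), FPKM and TPM for each gene of each library. FPKM deposited by the authors served only to gauge relative depth. The number of reads is unknown, and the SD of the 3 libraries is the only measure of precision.

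The tables were merged on gene name and position (43389 shared rows), and trios were found by name. Where a parent name had several rows, the nearest was taken. Ratios and ranges used log2(TPM + 1) and shares used TPM, and a call needed the same order in every library. Alternatives were a pseudocount of 0.1, other limits on low values, coverage, other scalings, stricter overlap and leaving out each replicate. Calculations were tested on simulated data. The members and lists were chosen with earlier results of these data known. The rows named were COMMD3-BMI1, the 10 with the highest mean TPM, the 10 with the highest and the 5 with the lowest ratio to the higher parent, the 5 with the largest range and chains. PTGES3L-AARSD1 is plotted as the next after these 5. Other members were named as examples of a group or after their values were seen. Hepatocyte regulators on the marker list are not reported here, so the check of the label rests on part of that list. Of its other genes, KRT18 had 2017 and CDH2 27.1 TPM, and 4 of 4 blood markers were below 1 TPM in every library. Python 3.11.15, numpy 2.4.6, pandas 2.3.3, scipy 1.17.1 and matplotlib 3.10.9 were used.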

Additional observations from a re-analysis of the deposited data

How the results depend on the processing

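No comparison between conditions was possible because only 1 condition was sequenced, and ratios were taken within each library. With a limit of 10 TPM in place of 1 TPM, 14 rows passed in place of 65. With a minimum mean of 10 TPM, 0 rows had a range above 1 in place of 18, and leaving out a replicate gave 10 to 12. With a pseudocount of 0.1, the median log2 ratio was -2.73 to A, against -2.07, and -1.65 to B, against -1.23, since a smaller pseudocount widens ratios of low values. By coverage the read-through row was the highest in 11 trios in place of 6, the median ratio to A was -2.25 and the median share 5.61% in place of 4.61%. With no filter on low values the medians were -1.78 to A and -0.52 to B, and the share was 4.94%. Where both parents had a mean of at least 1 TPM, 74 trios remained. There the read-through row was the highest in 2, above A in 6 and above B in 12, the medians were -2.38 to A and -2.45 to B, and the share was 4.23%. Without the near-identical copies, a setting chosen after seeing the data, the share was 3.96%. The requirement to overlap both parents removed no trio. Of 295 ratios of the named rows other than COMMD3-BMI1, taken by coverage, with the pseudocount of 0.1 and without each replicate, 290 kept their direction, leaving out MIA-RAB4B to MIA, where both are at 0. With a replicate left out, ISY1-RAB43 to RAB43 ranged from -2.42 to 0.42, reversing without replicate 1, and TPTEP2-CSNK1E to TPTEP2 ranged from -0.19 to 1.34, reversing without replicate 2 (-0.17) or replicate 3. By coverage P2RX5-TAX1BP3 to P2RX5 became 0.0039 and SYS1-DBNDD2 to SYS1 0.41. The cause of these changes was not tested.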
